A study of Capsicum annuum with 78 samples.

Results

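Leaves of pepper (Capsicum annuum, cultivar CM334) taken 72 h after the plants had received NaCl were compared with leaves taken 72 h after mannitol. The libraries were chosen by their labels, as the 3 with NaCl as the stress and the 3 with Mannitol, all at 72 h, which gives 6 of the 78 libraries of the series. The series also holds a mock control (labelled Abio-mock) and plants under heat or cold. Leaves were sampled in triplicate at 3, 6, 12 and 24 h as well as at 72 h, the mock also at 0 h. All 78 libraries entered the fit, and values are given mainly for the 6 libraries, the mock at 72 h and the NaCl, mannitol and mock libraries of the earlier time points. All plants were 6 weeks old per the labels and of the same cultivar, and a replicate pooled leaves of several plants, so differences between single plants are averaged within a library. The solutions had the same molar concentration and volume. NaCl splits into ions and mannitol does not, so the solutions were not matched in osmotic strength, and ionic and osmotic parts of a difference cannot be told apart.

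Mannitol is a sugar alcohol that lowers the water potential around the roots and so makes water harder to take up. NaCl does the same and also brings sodium and chloride ions, which accumulate in leaves with time and can become toxic. Both set off signalling by abscisic acid (ABA), the hormone of drought: receptors that bind ABA block clade A protein phosphatases, kinases are freed, and transcription factors of dehydration, among them NAC factors, are raised. The comparison asks which genes differed between the salt and the osmotic treatment at the last time point.

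The total count of the 6 libraries lay between 5685771 and 6445752, against 4310398 to 7667094 over all 78. Of the 35884 genes in the table, 19588 passed the filter on low counts, and these held about 99.9% of the counts of each of the 6 libraries and the 3 mock libraries at 72 h. Between replicates of NaCl and of mannitol, log2 CPM (read counts scaled to a common library size, prior count 2) correlated over genes with values between 0.975 and 0.985. Between a NaCl and a mannitol library the values lay between 0.958 and 0.976, so the ranges met. Mannitol replicate 1 correlated with NaCl replicate 2 at 0.9759 and with mannitol replicate 3 at 0.9754. The counts of each replicate pair differed beyond sampling noise, with a chi-square per degree of freedom of at least 2.30, so all 6 libraries were kept as separate samples. A marker check of the tissue could not be made, because the identifier of PSBP-1, the photosystem gene set aside for it, was not settled. The gene identifiers matched no annotation used here, so a gene carries a symbol only where the study's own heatmaps print one, and sequences and positions are not given. Symbols of 27 of 34 labels could be tied to an identifier, 16 of them only through a ranking of the candidate genes, because digits were unclear. The values of these 16 belong to the identifier and may not be those of the named gene. All symbols are those of Arabidopsis relatives. The study chose them on these libraries for their change against the mock, and they are not independent evidence of a direction.

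More genes were lower than higher in NaCl leaves than in mannitol leaves. Of the 19588 genes tested, 741 (3.78%) were differentially expressed genes (DEGs) at 72 h, with 194 (0.99%) higher and 547 (2.79%) lower in NaCl. Genes counted as DEGs when edgeR's quasi-likelihood test gave an adjusted p-value under 0.05 and the log2 fold change of NaCl over mannitol was over 1 in size. By the adjusted p-value alone, 1840 genes (9.39%) were higher and 1987 (10.1%) lower, so the excess of lower genes stood among the larger changes. The median log2 fold change over all tested genes was −0.01. Without mannitol replicate 3 there were 462 DEGs (145 higher, 317 lower), and without mannitol replicate 1 there were 1025 (303 higher, 722 lower).

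Among the 547 lower genes the median log2 fold change was −1.39, with 113 genes beyond a size of 2 and 46 beyond 3. The 194 higher genes had a median of 1.33, with 32 genes over 2 and 8 over 3. The largest fitted values were −5.80 and 5.03, both of weakly expressed genes, where the fitted value depends on the prior count. Of the lower genes, 46 had at most 3 counts in every NaCl library, the floor of detection used here, and 6 of these had no count in any of them. Of the higher genes, 19 were at that floor in every mannitol library, 2 of them without a count. With the genes at 0 set to the fold that 3 counts over the group would give, the medians stayed at 1.33 and −1.39. Only 2 and 6 genes were reset, which can hardly move a median, so this says little about the sizes. The 3 NaCl libraries lay outside the range of the 3 mannitol libraries for 177 of the 194 higher genes (14% of all tested genes lay above) and for 498 of the 547 lower genes (17.6% lay below).

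**Figure D1:**
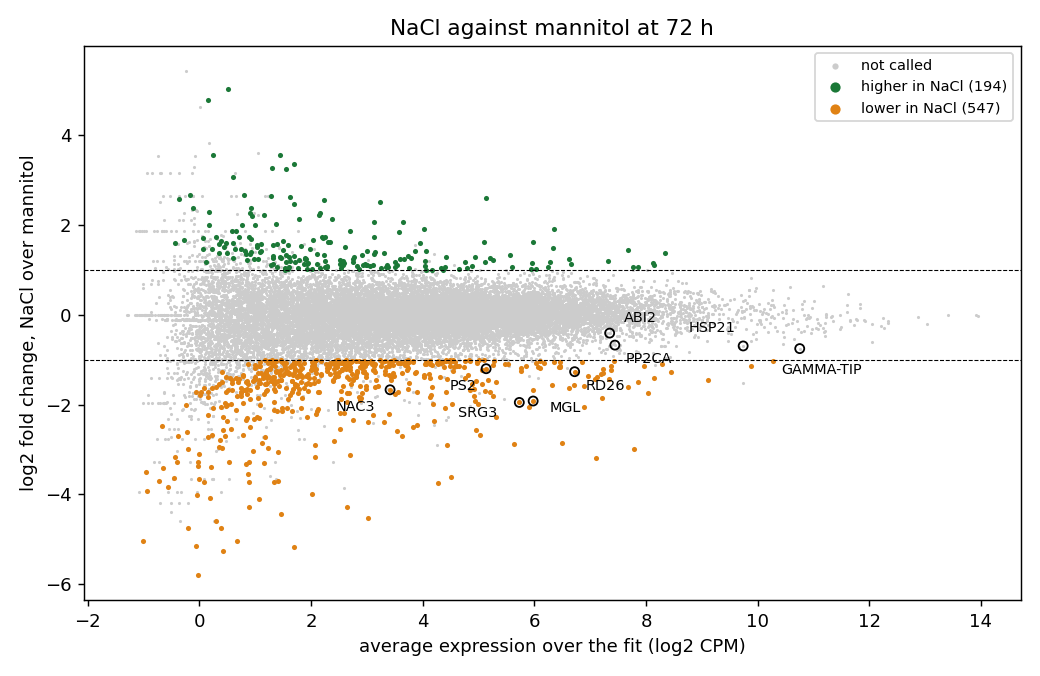
Log2 fold change of NaCl over mannitol at 72 h (y axis) against the average expression over the fit (x axis, log2 CPM) for each of the 19588 tested genes, with DEGs higher in NaCl in green, DEGs lower in NaCl in orange and the limits of a log2 fold change of 1 as dashed lines. The 547 lower genes reach further from 0 than the 194 higher ones, and 9 genes with a symbol are circled, 5 of them lower DEGs.

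The mannitol libraries were less alike than the NaCl libraries over these genes. The 547 lower genes took 0.874%, 0.862% and 0.915% of the counts of NaCl replicates 1, 2 and 3, and 1.84%, 2.31% and 2.60% of the counts of mannitol replicates 1, 2 and 3. The groups did not overlap, and mannitol replicate 1 stood nearest to NaCl. That library had the lowest mannitol value for 388 of the 547 genes, and replicate 3 had the highest for 311. The median SD of a lower gene over replicates was 0.28 log2 units in NaCl and 0.44 in mannitol, against 0.19 and 0.20 over all tested genes. The lower genes were also weaker, with a median average level of 2.30 log2 CPM against 3.86 over all tested genes. The SDs were not compared at matched levels. The 194 higher genes took 0.474%, 0.451% and 0.457% in the NaCl libraries and 0.213%, 0.186% and 0.168% in the mannitol libraries. Here too mannitol replicate 1 lay nearest to NaCl, with the highest mannitol value for 120 of the 194 genes. The principal components of the 9 libraries at 72 h were taken over all tested genes. The first held 45.8% of the variance, with NaCl at −14.9, −14.8 and −18.3 and mannitol at −27.2, −43.4 and −48.4. There the mock lay between 48.9 and 59.3, and mannitol replicate 1 lay nearer to NaCl than to mannitol replicate 3. The second held 19.7%, with NaCl at −38.5, −36.4 and −30.1 and mannitol at 8.71, 27.7 and 39.6. On the second the mock, between 2.29 and 14.8, overlapped the mannitol range. The shares and spreads of the 2 lists describe genes that the same 6 libraries had selected.

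**Figure D2:**
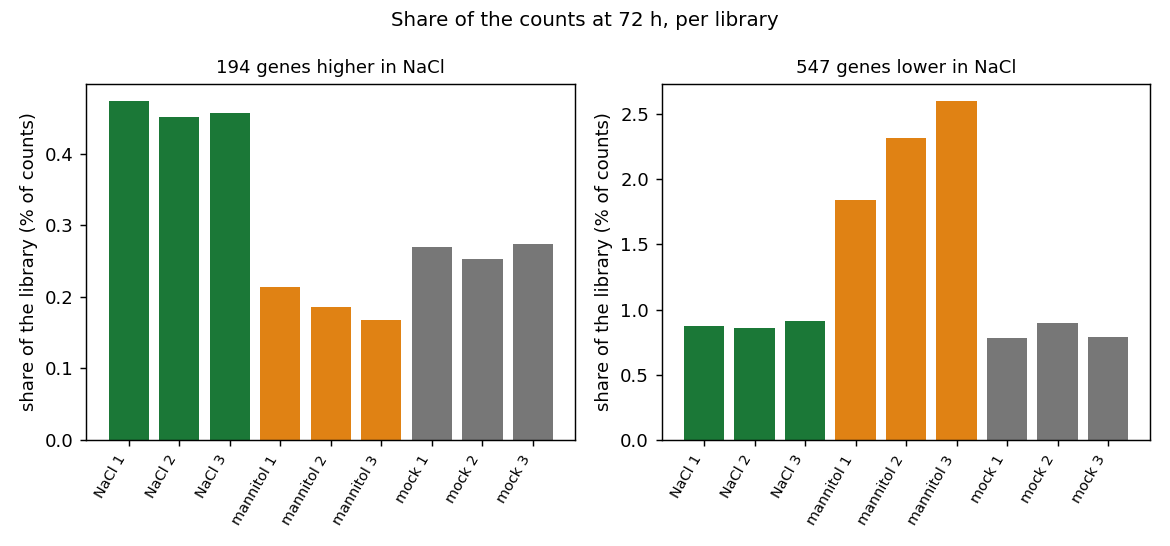
Share of each library's counts (% of counts, y axis) taken by the 194 genes higher in NaCl (left panel) and the 547 genes lower in NaCl (right panel), 1 bar per library at 72 h, for NaCl, mannitol and mock replicates 1 to 3. The mannitol bars differ among themselves, with the lower genes at 1.84% in replicate 1 and 2.60% in replicate 3, while the NaCl and mock bars of the right panel all lie between 0.780% and 0.915%.

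The NAC factors RD26 and NAC3 were lower DEGs. RD26 (scaffold213.1), a NAC transcription factor that dehydration and ABA induce in Arabidopsis, had 69.2, 77.0 and 60.8 CPM in NaCl leaves, 147, 165 and 186 CPM in mannitol leaves and 38.7, 51.9 and 43.2 CPM in mock leaves. Every NaCl library lay between the mock and the mannitol range. The log2 fold change of RD26 in NaCl over mannitol was −1.27 ± 0.17 (SE, adjusted p = 1.44e-07).

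NAC3 (scaffold162.87), a further stress-induced NAC factor, had 7.26, 5.65 and 4.13 CPM in NaCl, 16.1, 17.7 and 20.3 CPM in mannitol and 1.82, 2.74 and 2.81 CPM in the mock. NAC3 fell by 1.67 on the log2 scale (SE 0.27, adjusted p = 5.23e-06), and NaCl again lay between the mock and mannitol with no overlap. The identifier of NAC3 was settled by the ranking among 4 possible ones.

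The phosphatases that hold ABA signalling down, PP2CA and ABI2, were also lower, with smaller differences. PP2CA (scaffold1184.9) had 126, 130 and 146 CPM in NaCl, 163, 233 and 244 CPM in mannitol and 98.3, 113 and 101 CPM in the mock. ABI2 (scaffold862.18) had 171, 179 and 174 CPM in NaCl, 210, 242 and 243 CPM in mannitol and 141, 164 and 134 CPM in the mock. Their groups did not overlap, and the log2 fold changes in NaCl over mannitol were −0.67 ± 0.15 for PP2CA (SE, adjusted p = 0.000763) and −0.41 ± 0.12 for ABI2 (SE, adjusted p = 0.00974). These pass the adjusted p-value and not the fold limit of a DEG. ABI2 did not pass in every alternative, with an adjusted p between 0.00847 and 0.0672. The identifiers were settled by the ranking, among 10 possible ones for PP2CA and 11 for ABI2.

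MGL (scaffold567.88), methionine gamma-lyase, which breaks methionine down and feeds isoleucine synthesis in Arabidopsis, had 26.0, 19.9 and 19.5 CPM in NaCl, 54.0, 83.9 and 110 CPM in mannitol and 4.56, 3.47 and 4.30 CPM in the mock. MGL fell by 1.92 on the log2 scale in NaCl against mannitol (SE 0.35, adjusted p = 4.7e-05). Both groups stood above the mock, by 2.40 in NaCl and by 4.32 in mannitol on the log2 scale, and these comparisons share the mock libraries. The identifier of MGL was settled among 10 possible ones by its change against the mock in mannitol, 72 h included. Its height above the mock is therefore a description, and the values may not be those of the lyase.

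SRG3 and PS2, which phosphate starvation induces in Arabidopsis, were the remaining DEGs with a symbol, both lower in NaCl. SRG3 (scaffold473.142), a glycerophosphodiester phosphodiesterase that frees phosphate from lipid breakdown products, had 16.6, 16.3 and 10.3 CPM in NaCl, 37.9, 59.1 and 69.4 CPM in mannitol and 16.6, 16.1 and 12.2 CPM in the mock. Its log2 fold change was −1.95 ± 0.22 (SE, adjusted p = 1.26e-09). The NaCl and mock ranges of SRG3 overlapped and every mannitol library lay above them.

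PS2 (scaffold1389.1), a phosphatase, had 16.7, 18.8 and 20.2 CPM in NaCl, 43.8, 35.2 and 49.3 CPM in mannitol and 22.6, 16.3 and 14.4 CPM in the mock, with a log2 fold change of −1.20 ± 0.26 (SE, adjusted p = 0.000578). As for SRG3, NaCl overlapped the mock and mannitol stood above. The identifier of PS2 was settled by the ranking among 3 possible ones. ACP5 (scaffold637.34), a purple acid phosphatase, had 9.29, 7.87 and 8.73 CPM in NaCl and 10.4, 14.1 and 13.1 CPM in mannitol, a log2 fold change of −0.54 ± 0.18 (SE, adjusted p = 0.0297) that stayed below the fold limit. The adjusted p of ACP5 lay between 0.0167 and 0.176 over the alternatives.

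GAMMA-TIP (scaffold1432.12), an aquaporin of the vacuolar membrane, had 961, 892 and 828 CPM in NaCl, 1572, 1372 and 1572 CPM in mannitol and 1868, 2033 and 2069 CPM in the mock. The order was NaCl, mannitol, mock from low to high with no overlap, unlike RD26 and NAC3, where the mock was lowest. The log2 fold change in NaCl over mannitol was −0.75 ± 0.11 (SE, adjusted p = 4.65e-07), below the fold limit. It was also negative and past the adjusted p-value at each earlier time point, with values between −0.63, at 12 h, and −0.56, at 24 h.

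HSP21 (scaffold303.8), a small heat shock protein of the chloroplast, had 2.53, 2.22 and 15.1 CPM in NaCl, 6.12, 17.1 and 9.35 CPM in mannitol and 0.547, 0.366 and 0.935 CPM in the mock. NaCl replicate 3 lay within the mannitol range and the other NaCl libraries below it. The log2 fold change of HSP21 was −0.69 ± 0.34 (SE, adjusted p = 0.155), and without NaCl replicate 3 it was −2.16 (adjusted p = 3.82e-05). The same library stood apart for RBCL (scaffold1478.10), with 4.90, 5.48 and 16.3 CPM in NaCl against 7.42, 7.14 and 9.53 CPM in mannitol. The symbol is that of the large subunit of the carbon-fixing enzyme Rubisco. Its identifier was settled by the ranking among 6 possible ones, so the values belong to this identifier and may not be those of the subunit. RBCL had a log2 fold change of 0.17 ± 0.40 (SE, adjusted p = 0.821), and without NaCl replicate 3 it was −0.61 (adjusted p = 0.402).

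Of the 27 genes with a symbol, 5 (18.5%) were lower DEGs, against 2.79% of all tested genes, none was a higher DEG, against 0.99% of all, and the median log2 fold change was −0.18, beside −0.01 over all tested genes. These genes were picked on the same libraries for their change against the mock, so their share of DEGs is a description and not evidence of an excess. The highest value among them was that of CTL2 (scaffold484.116), with 15.0, 11.8 and 17.9 CPM in NaCl, 9.28, 11.4 and 8.09 CPM in mannitol and 12.8, 14.6 and 14.8 CPM in the mock. Mannitol lay below both other groups, and the log2 fold change of CTL2 was 0.64 ± 0.15 (SE, adjusted p = 0.00159). HGO (scaffold739.4), the homogentisate dioxygenase of tyrosine breakdown, had 41.4, 38.0 and 44.9 CPM in NaCl, 31.0, 41.3 and 45.3 CPM in mannitol and 18.4, 16.8 and 16.8 CPM in the mock, so both treatments stood above the mock and overlapped each other. AAP7 (scaffold623.59), an amino acid permease, also stood above the mock in both treatments, which overlapped, with 502, 498 and 518 CPM in NaCl, 474, 588 and 629 CPM in mannitol and 290, 338 and 267 CPM in the mock. GLP3 (scaffold668.47), a germin-like protein of the cell wall, had 219, 214 and 192 CPM in NaCl, 266, 150 and 134 CPM in mannitol and 567, 581 and 667 CPM in the mock. The log2 fold changes of NaCl over mannitol at 72 h were 0.08 ± 0.11 for HGO, −0.16 ± 0.14 for AAP7 and 0.19 ± 0.24 for GLP3 (SE, adjusted p = 0.669, 0.481 and 0.637).

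**Figure D3:**
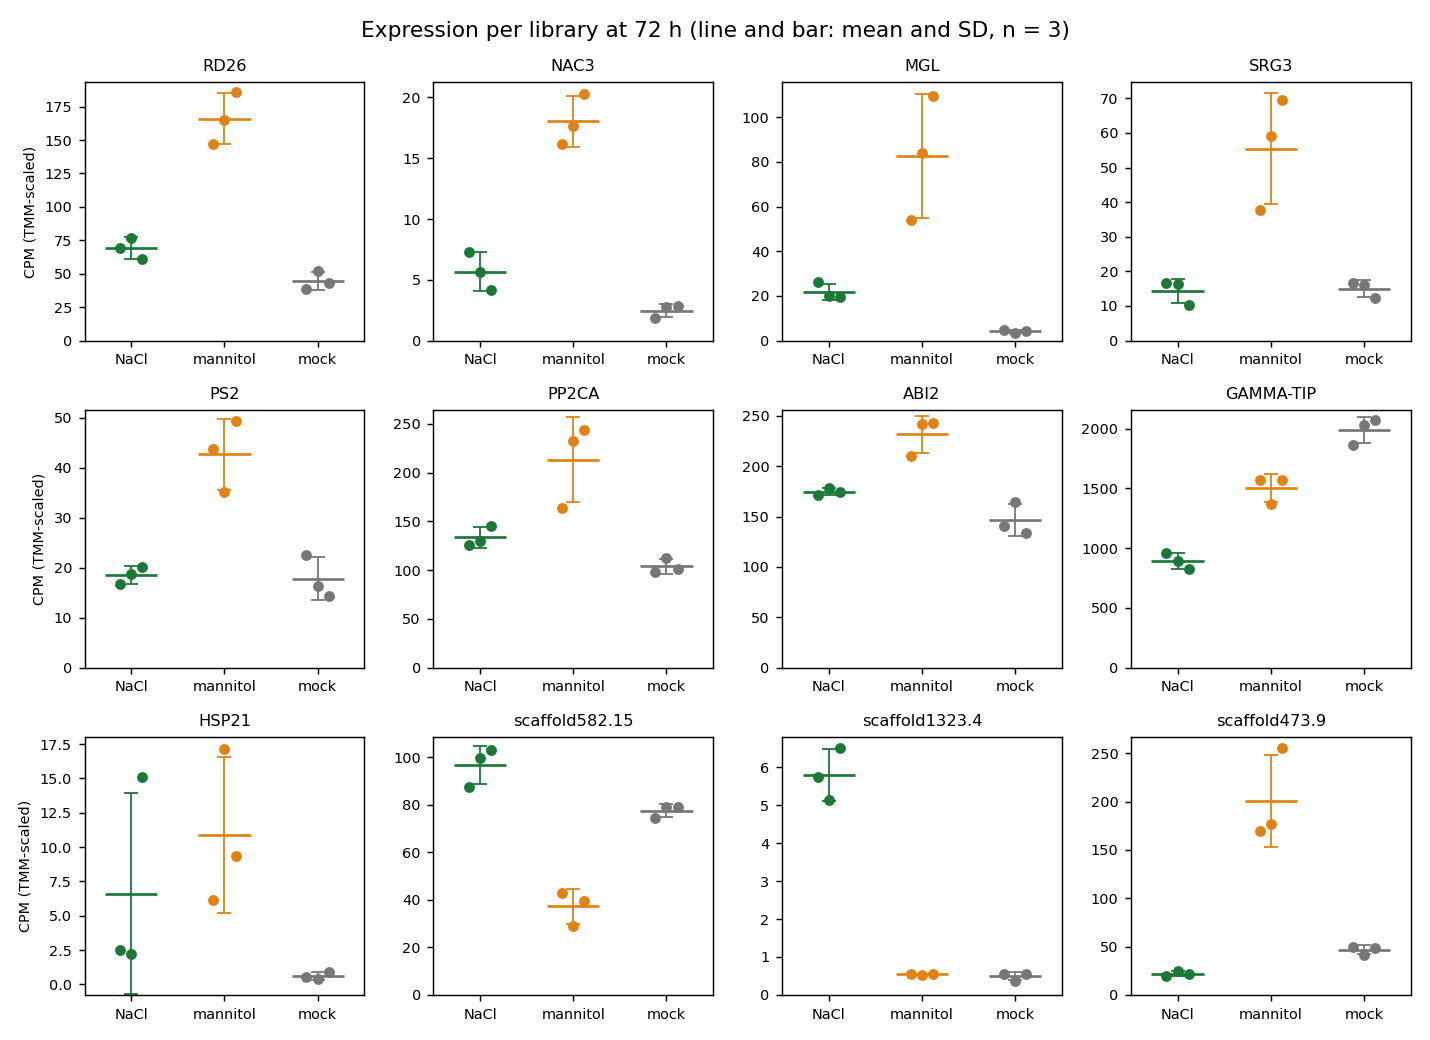
Expression at 72 h (y axis, TMM-scaled CPM) of 12 genes in NaCl, mannitol and mock leaves, with 1 point per library, a line at the mean and a bar of 1 SD (n = 3); the panels of scaffold identifiers are genes without a symbol. RD26, NAC3 and MGL were lowest in the mock and highest in mannitol with NaCl between, SRG3 and PS2 overlapped between NaCl and the mock, and the HSP21 points of NaCl are split, with 15.1 CPM in replicate 3.

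Of the 741 DEGs, 736 had no symbol, and 4 of these were taken by rule. The higher DEG with the smallest p-value was scaffold582.15, with 87.5, 99.8 and 103 CPM in NaCl, 43.0, 29.1 and 39.6 CPM in mannitol and 74.3, 78.8 and 79.1 CPM in the mock. Mannitol stood below the mock and NaCl above it, and the log2 fold change of scaffold582.15 in NaCl over mannitol was 1.38 ± 0.12 (SE, adjusted p = 4.25e-13). The lower DEG with the smallest p-value was scaffold473.9, with 19.8, 24.6 and 21.6 CPM in NaCl, 170, 177 and 256 CPM in mannitol and 49.6, 41.3 and 49.0 CPM in the mock. Here NaCl stood below the mock and mannitol above it, and the log2 fold change of scaffold473.9 was −3.19 ± 0.19 (SE, adjusted p = 2.63e-20).

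The largest changes with at least 10 counts in each library of the higher group were those of scaffold1323.4 and scaffold371.116. The gene scaffold1323.4 had 34, 30 and 41 counts in NaCl and 3, 3 and 3 in mannitol, a ratio of 10.7 with a 95% counting interval of 5.42 to 24.0. The gene scaffold371.116 had 0, 0 and 3 counts in NaCl and 15, 43 and 54 in mannitol, a ratio of mannitol over NaCl of 40.8 with a counting interval of 13.6 to 201. All NaCl counts of scaffold371.116 came from replicate 3, at the floor, and its fitted log2 fold change ran from −8.32 without that library to −4.65 without NaCl replicate 1, so its size is not fixed. The intervals cover counting error only, since reads without molecular identifiers are not independent molecules.

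The mock control at 72 h served as the level of plants given neither solute. The comparisons of NaCl with the mock, of mannitol with the mock and of NaCl with mannitol share libraries, so their values are given side by side. Over all tested genes there were 1134 DEGs of NaCl over mock (5.79%) and 1769 of mannitol over mock (9.03%). For the 547 lower genes, NaCl over mock had 59 higher DEGs (3.68% of all tested genes were higher) and 55 lower DEGs (2.11% of all), with a median log2 fold change of −0.13. Mannitol over mock had 321 higher DEGs (6.59% of all), 1 lower DEG (2.44% of all) and a median of 1.26. The mean level of the mock lay nearer to NaCl for 424 of these genes (77.5%), beside 56.7% of all tested genes. With library totals in place of TMM scaling the median of NaCl over mock for the lower genes was 0.07 and that of mannitol over mock 1.49, so the sign of the NaCl median changed with the scaling.

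For the 194 higher genes, NaCl over mock had 51 higher DEGs (26.3%, against 3.68% of all tested genes), 2 lower DEGs (1.03%, against 2.11%) and a median log2 fold change of 0.56. Mannitol over mock had 13 higher DEGs (6.7%, near the 6.59% of all), 68 lower DEGs (35.1%, against 2.44%) and a median of −0.79. The mock lay nearer to NaCl for 110 of the 194 genes (56.7%), the same share as over all tested genes. In bulk leaves, fewer cells of a type and less RNA per cell cannot be told apart for any of these genes.

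The difference between the solutes at 72 h was then read at 24 h, in libraries that are not part of the contrast at 72 h, although they share its fit. NaCl over mannitol at 24 h gave 1860 DEGs (9.5%), with 948 higher (4.84%) and 912 lower (4.66%). Of the 547 genes lower at 72 h, 97 (17.7%) were higher DEGs at 24 h and 45 (8.23%) were lower DEGs, and the median log2 fold change at 24 h was 0.24, beside 0.05 over all tested genes. The 97 genes make up 10.2% of the genes higher at 24 h, and the 45 genes 4.93% of those lower. Of the 194 genes higher at 72 h, 14 (7.22%) were higher and 19 (9.79%) lower at 24 h, with a median of 0.07. With library totals the split of the higher list, then of 215 genes, was 24 higher and 12 lower, and without mannitol replicate 3 it was 16 and 12 of 145. For the lower list, higher DEGs at 24 h outnumbered lower ones in each of the 6 fits without a replicate at 72 h, with 57 against 37 of 317 genes without mannitol replicate 3. The same 24 h libraries served in all 6 fits, so these vary the list and do not test the direction at 24 h. Without NaCl replicate 2 the median of the lower list at 24 h was 0.03.

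**Figure D4:**
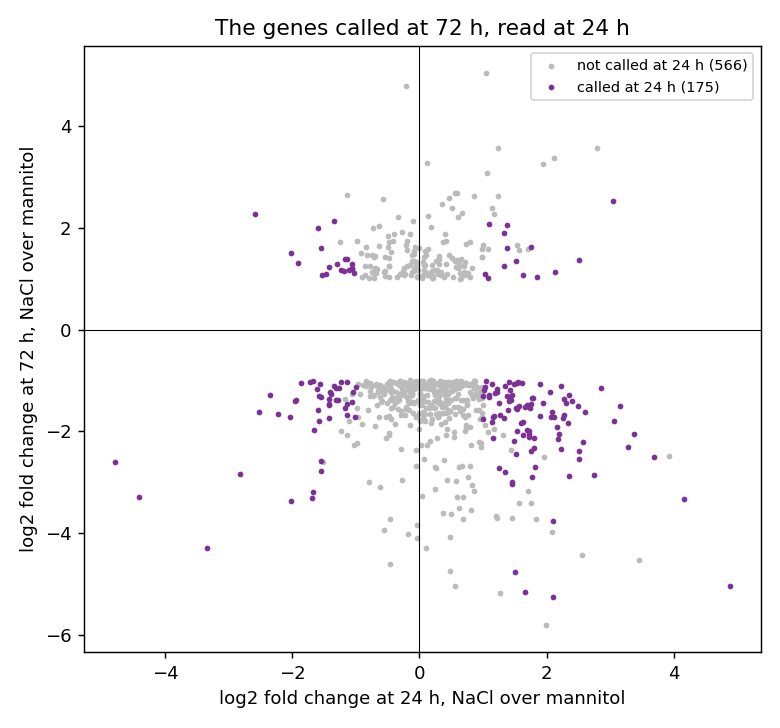
Log2 fold change of NaCl over mannitol at 72 h (y axis) against that at 24 h (x axis) for the 741 DEGs of 72 h, 1 point per gene, with the 175 genes that were also DEGs at 24 h in purple. The lower right quadrant, lower in NaCl at 72 h and higher at 24 h, holds 97 of the purple points, and the lower left one 45.

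The difference between the effects was tested directly, as NaCl over mannitol at 72 h minus NaCl over mannitol at 24 h. It gave 2524 DEGs (12.9%), with 1112 positive (5.68%) and 1412 negative (7.21%). This test shares the 72 h libraries with the comparison that chose the lists, so the counts within them are a description. Of the 547 lower genes 345 were negative DEGs of the difference and 1 was a positive one. Of the 194 higher genes 93 were positive and none negative. The balance of positive and negative DEGs over all genes depended on the fit. Library totals gave 800 positive and 1836 negative DEGs and moved the median over all tested genes to −0.20, from −0.06 with TMM scaling. RLE scaling gave 1223 and 1300, and without mannitol replicate 1 there were 1492 positive and 1436 negative ones.

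RD26 passed the test of this difference, with log2 fold changes of −1.27 at 72 h and 0.60 at 24 h and a difference of −1.87 (adjusted p = 1.27e-08). In NaCl leaves RD26 averaged 177 ± 13 CPM after 3 h, 109 ± 13 CPM after 6 h, 150 ± 14 CPM after 12 h, 158 ± 22 CPM after 24 h and 69.0 ± 8.1 CPM after 72 h (SD, n = 3 each). In mannitol leaves it averaged 118 ± 18 CPM after 3 h, 90.9 ± 33 CPM after 6 h, 145 ± 7.4 CPM after 12 h, 104 ± 16 CPM after 24 h and 166 ± 19 CPM after 72 h. RD26 thus stood higher in NaCl at 3 h and at 24 h by the adjusted p-value (0.0167 and 0.00333), and lower at 72 h. Within NaCl leaves its log2 fold change of 72 h over 24 h was −1.19, within mannitol leaves it was 0.68 and within mock leaves it was 1.67 (adjusted p = 3.46e-09).

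NAC3 and MGL changed sides in the same way. NAC3 had log2 fold changes of −1.67 at 72 h and 0.68 at 24 h (adjusted p = 0.0286 at 24 h), a difference of −2.35 (adjusted p = 1.11e-06). MGL had −1.92 at 72 h and 0.80 at 24 h (adjusted p = 0.036 at 24 h), a difference of −2.72 (adjusted p = 5.97e-06). For MGL the NaCl level averaged 21.8 ± 3.7 CPM at 72 h and 170 ± 6.6 CPM at 24 h, and the mannitol level 82.5 ± 28 CPM at 72 h and 97.9 ± 16 CPM at 24 h. The log2 fold change of 72 h over 24 h was therefore −2.96 within NaCl and −0.24 within mannitol (adjusted p = 3.34e-10 and 0.675).

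SRG3 and PS2 also passed the test of the difference. SRG3 averaged 14.4 ± 3.5 CPM in NaCl at 72 h and 50.1 ± 6.6 at 24 h, and in mannitol 55.5 ± 16 CPM at 72 h and 50.6 ± 6.1 at 24 h. The log2 fold change of SRG3 at 24 h was −0.01 ± 0.19 (SE), and the difference between the time points was −1.94 (adjusted p = 4.6e-07). PS2 averaged 18.6 ± 1.7 CPM in NaCl at 72 h and 28.5 ± 6.9 at 24 h, and in mannitol 42.7 ± 7.1 CPM at 72 h and 20.0 ± 7.6 at 24 h, a difference of −1.71 (adjusted p = 0.000293). ACP5 had log2 fold changes of −0.54 at 72 h and −0.64 at 24 h, and its difference of 0.10 missed the test (adjusted p = 0.807).

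HSP21 and GLP3, which missed the limits at 72 h, had been DEGs at 24 h. HSP21 averaged 50.7 ± 15 CPM in NaCl and 8.30 ± 2.3 CPM in mannitol at 24 h, a log2 fold change of 2.61. GLP3 averaged 67.9 ± 18 CPM in NaCl and 223 ± 59 CPM in mannitol at 24 h, a log2 fold change of −1.72. The difference of 72 h over 24 h was −3.30 for HSP21 (adjusted p = 5.94e-08) and 1.90 for GLP3 (adjusted p = 1.56e-05).

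The levels of the lists were followed over time. The median level of the 547 lower genes in NaCl was 1.91, 1.96, 1.95, 2.46 and 1.54 log2 CPM, in the order of the 5 sampling times from 3 h to 72 h. In mannitol it was 1.95, 1.94, 2.07, 2.27 and 2.86 log2 CPM, and in the mock 1.63, 1.75, 1.56, 1.33 and 1.64. Between 24 and 72 h, 236 of these genes were lower and 5 higher at 72 h within NaCl (4.79% and 4.99% of all tested genes, 9.78% in all), and 91 were higher and 1 lower within mannitol (2.38% and 0.454% of all, 2.84% together). The 97 genes that were lower at 72 h and higher at 24 h had medians of 2.28 log2 CPM in NaCl and 3.86 in mannitol at 72 h, and of 4.39 in NaCl and 2.89 in mannitol at 24 h. These 97 genes were selected by their calls at both times, so the order of the medians at 72 h and at 24 h was set by the choice. The 194 higher genes had a median of 2.52 log2 CPM in NaCl at 72 h and 1.59 at 24 h, and in mannitol 1.34 at 72 h and 1.47 at 24 h. Of these 194 genes, 94 were higher and 1 lower at 72 h within NaCl, and 18 were higher and 18 lower within mannitol. The median log2 fold change of 72 h over 24 h was 0.97 within NaCl, −0.37 within mannitol and −0.35 within the mock. These within-treatment comparisons share the 72 h libraries that selected the genes, so the 72 h levels themselves are a description.

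**Figure D5:**
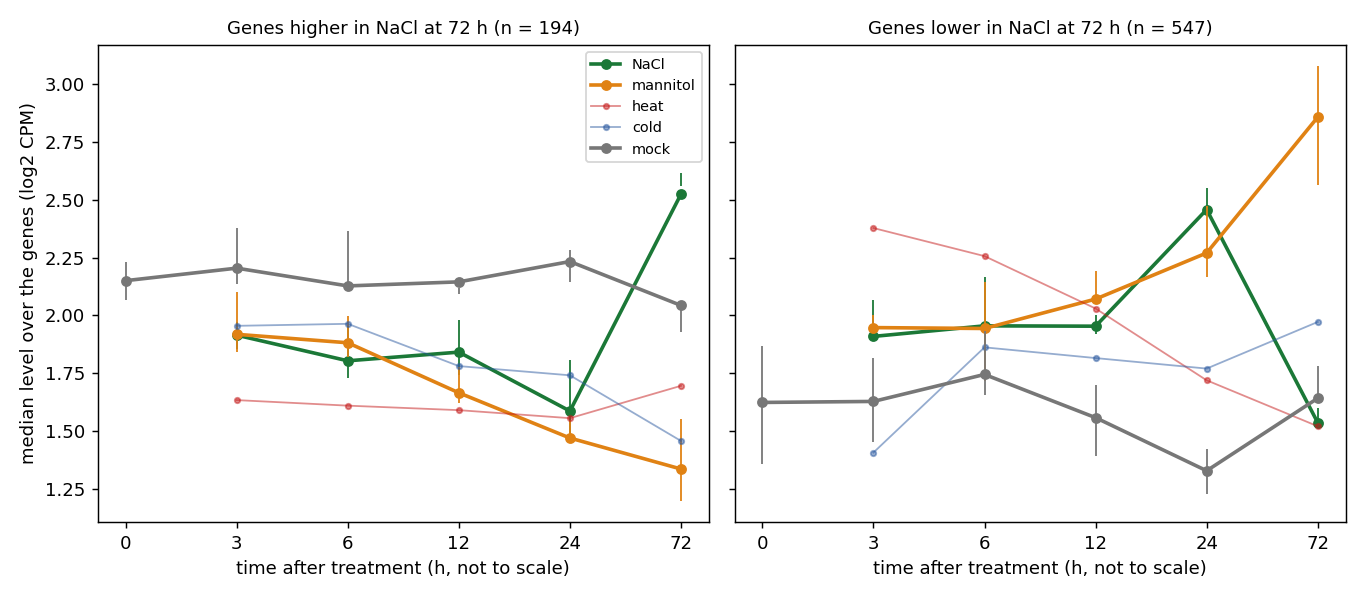
Median expression (y axis, log2 CPM) of the 194 genes higher in NaCl at 72 h (left) and the 547 genes lower in NaCl at 72 h (right) at each sampling time (x axis, h, not to scale) in NaCl, mannitol, heat, cold and mock leaves; vertical lines span the medians of the 3 single libraries. In the right panel the NaCl and mannitol medians were 1.54 and 2.86 at 72 h, and 2.46 and 2.27 at 24 h.

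At 3, 6 and 12 h the solutes gave fewer DEGs. NaCl over mannitol gave 301 DEGs at 3 h (1.54%), 253 at 6 h (1.29%) and 116 at 12 h (0.592%). At 12 h, 20 of the 547 lower genes were already lower DEGs and 2 were higher DEGs (0.296% of all tested genes in each direction). These 20 were 3.66% of the genes lower at 72 h and 34.5% of the 58 genes lower at 12 h. Likewise 10 of the 194 higher genes, which are 17.2% of the 58 genes higher at 12 h, were higher at 12 h, and none was lower. At 3 h, 30 of the 547 lower genes were higher DEGs and 5 lower ones (1.04% and 0.5% of all). At 6 h the lower list held 12 higher and 12 lower DEGs (0.608% and 0.684% of all). Among the named genes, MGL was a higher DEG in NaCl at 3 h, with a log2 fold change of 1.37 (adjusted p = 0.00317). GLP3 was a lower DEG at 3 h, with −1.20 (adjusted p = 0.00049), and at 6 h, with −1.09 (adjusted p = 0.00126).

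Some DEGs had consecutive numbers on a scaffold. Of the 425 lower genes with a tested neighbour, 58 (13.6%) had a neighbour that was also a lower DEG, beside 3.8% of all 16410 tested genes with a tested neighbour. Of 156 higher genes, 19 (12.2%) had such a neighbour, beside 1.35% of all. The longest runs were of 3 genes. Several higher DEGs with such a neighbour lay on a single scaffold. They were scaffold1056.9, scaffold1056.10, scaffold1056.11, scaffold1056.13, scaffold1056.14, scaffold1056.15, scaffold1056.19 and scaffold1056.20, and they weigh on the share of the higher list. The numbers are part of the identifiers, and near-identical tandem copies can share reads, so the members of a run may not be separate measurements.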

How the data were processed

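Leaf RNA was sequenced by the study with strand-specific Illumina libraries. Per the submitters' processing notes, reads were checked with FastQC 0.11.5, trimmed with cutadapt 1.9.1, aligned with HISAT2 to the CM334 genome and counted per gene with featureCounts 1.5.2. The deposited values are these read counts, whole numbers without normalization, and 0 columns belonged to no sample.

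Differential expression was tested with edgeR 4.0.16 in R 4.3.3, after filterByExpr with the group as its factor and TMM scaling. A quasi-likelihood fit of all 78 libraries used 1 factor that joins time point and treatment, as the study describes. P-values were adjusted by Benjamini-Hochberg within each contrast. The SE was the log2 fold change over the square root of F. CPM were TMM-scaled. The fit was tested on simulated data. These were drawn with the same spread of a gene in every group, so they do not cover the uneven spread of the mannitol and NaCl libraries. No label ties same-numbered replicates to shared plants. The p-values and SEs rest on the spread between replicates of pooled leaves, taken for each gene over all groups of the fit, heat and cold included. It is therefore not the spread of the compared NaCl and mannitol replicates alone. Over the lower genes the median SD of those replicates was 0.28 log2 units in NaCl and 0.44 in mannitol, against 0.19 and 0.20 over all tested genes, which were more strongly expressed. The members and lists were chosen with earlier results of these data known.

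Genes were named by rule: every gene whose symbol the study's heatmaps print, and, of genes without one, the DEG with the smallest p-value and that with the largest change (at least 10 counts in each library of the higher group) in each direction. Genes were ranked for each stress against mock over all its time points, 72 h included, among genes that were DEGs at any of them. Where digits of a label were unclear, the identifier was accepted if exactly 1 possible reading was among the first 300 with the set direction. This settled 27 of 34 symbols, and 16 of the 27 had several possible readings and rest on that ranking, among them MGL, NAC3, PS2, PP2CA, ABI2, CTL2, RBCL, GLP3, AAP7 and both copies of U2AF35B. Alternatives were DESeq2 1.42.0, a replicate block, other scalings and filters, a robust fit, fits on fewer libraries, the adjusted p-value alone and each replicate left out. The identifiers matched 0 genes of the reference name table.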

Additional observations from a re-analysis of the deposited data

Results flagged for a closer look

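The effect of NaCl over mannitol differed between 72 h and 24 h for 12 of the named genes, by edgeR's test of the difference itself with Benjamini-Hochberg adjustment over all 19588 genes. The difference is the log2 fold change at 72 h minus that at 24 h. It was negative for RD26 (−1.87), NAC3 (−2.35), MGL (−2.72), SRG3 (−1.94), PS2 (−1.71) and HSP21 (−3.30). The second copy of U2AF35B (scaffold386.32), a splicing factor subunit, had a difference of −1.06 (adjusted p = 0.000163), with −0.26 at 72 h and 0.80 at 24 h. ACA2 (scaffold775.11) had −1.21 (adjusted p = 0.00232), with −0.52 at 72 h and 0.69 at 24 h. The difference was positive for GLP3, with 1.90.

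The 3 genes without a symbol were chosen for their values at 72 h, and the test of the difference uses the same 72 h libraries, so their values are a description and the choice bears on the p-values. The gene scaffold582.15 had a difference of 2.51 (adjusted p = 5.23e-18), with 1.38 at 72 h and −1.14 at 24 h. The gene scaffold473.9 was lower in NaCl at both times, with −3.19 at 72 h and −1.68 at 24 h, and a difference of −1.51 (adjusted p = 4.39e-06). The gene scaffold371.116 had a fitted difference of −6.44 (adjusted p = 4.08e-07), where the fitted value depends on the prior count, since the NaCl libraries at 72 h held at most 3 counts.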

How the results depend on the processing

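The counts of DEGs depended most on the fold limit and on single mannitol libraries. With the adjusted p-value alone, NaCl over mannitol at 72 h gave 3827 genes (1840 higher, 1987 lower), and the difference between 72 h and 24 h gave 5529 (2607 positive, 2922 negative). Leaving out each replicate in turn gave between 462 and 1025 DEGs at 72 h, with 145 to 303 higher and 317 to 722 lower, and both ends came from mannitol libraries (462 without replicate 3, 1025 without replicate 1). Of the 741 DEGs, 416 were shared with the fit without mannitol replicate 3 and 660 with that without mannitol replicate 1. For the difference the same fits gave 2075 to 2928 DEGs, with 953 to 1492 positive and 1122 to 1436 negative. DESeq2 gave 658 DEGs at 72 h, 634 of them shared, with 380 adjusted p-values not given. The fit of the 6 libraries alone gave 594, with 532 shared. Lower genes were between 67.9% and 74.2% of the DEGs at 72 h in all alternatives with the fold limit. For the difference, 55.9% of the DEGs were negative, 69.7% with library totals, and between 49% and 56.4% with the other scalings and filters, the block, the robust fit and each replicate left out, so neither direction was favoured in every fit.

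The replicate number as a block gave 748 DEGs at 72 h (732 shared) and 2532 for the difference. Same-numbered NaCl and mannitol libraries had deviations from their group means that correlated over genes at 0.15, 0.03 and 0.19 for numbers 1, 2 and 3. Libraries of unlike numbers correlated between −0.21 and 0.08. The main fit left the number out because no label says what it stands for, and a shared origin of same-numbered libraries was not tested. Each NaCl library correlated best with a mannitol library of its own number except NaCl replicate 2, where the value with mannitol replicate 1 was 0.08.

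Of 496 values of the 31 named genes under the alternatives, 495 kept their status as a DEG or not. The exception was HSP21 without NaCl replicate 3. By the adjusted p-value alone, 14 values crossed the limit, 6 of them of ACP5 and the rest of PGR5-LIKEA, ABI2, HSP21, ACA2 and the first copy of U2AF35B. Depth limits the 46 lower and 19 higher genes at or under 3 counts, for which the size of the change is not fixed.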
